A study of Mus musculus with 8 samples.

Results

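The 10 genes described here, *Nkx2-5*, *Gata4*, *Gata5*, *Gata6*, *Tbx5*, *Tbx20*, *Hand1*, *Hand2*, *Mef2c* and *Isl1*, encode the core transcription factors of the developing heart. They were measured by 25 probe sets of the 45101 on an Affymetrix Mouse430 array, taking every probe set that the platform annotation gives to 1 of these genes alone. They are 10 of 18194 genes with a probe set of their own. Intact hearts were taken at E18.5 from 3 pups homozygous for the 2lox allele (2lox/2lox) and 5 wild-type pups, with 1 array per heart. Per the study the pups were littermates, and the labels do not say which hearts shared a litter. The 2lox allele is an unrecombined floxed allele of *Aof2*, now *Kdm1a*, the gene of the histone demethylase Lsd1. Per the study, the allele encodes an Lsd1 protein with a pair of amino acid changes in its tower domain, and the heart defects differ between 2lox/2lox pups. The labels call the genotype both hypomorphic and a knock-out. The purpose of the arrays was to find genes whose expression differed between the genotypes in hearts where septal defects had been seen. Whether the 8 hearts profiled here carried such a defect was not given in the sources used here.

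These factors bind DNA together and activate each other's genes. *Nkx2-5* encodes a homeodomain protein, *Gata4*, *Gata5* and *Gata6* encode zinc finger proteins that bind GATA sites, and *Tbx5* and *Tbx20* encode T-box proteins. *Hand1* and *Hand2* encode basic helix-loop-helix proteins that bind E-boxes, *Mef2c* encodes a MADS-box protein, and *Isl1* encodes a LIM homeodomain protein of the progenitors of the second heart field. Septation of the heart is sensitive to the dose of several of them, since loss of 1 copy of *NKX2-5*, *GATA4* or *TBX5* causes septal defects in people.

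The values are log2 expression levels as the authors deposited them, and a log2 difference of 1 is a doubling. All 3 2lox/2lox hearts had less *Kdm1a* RNA than any wild-type heart. The brighter of its probe sets (1426762_s_at) read 9.44, 9.53 and 9.55 in the 2lox/2lox hearts, against 10.36, 10.34, 10.29, 10.32 and 10.26 in the wild-type hearts (log2 difference -0.81, limma adjusted p = 5.15e-04). The array medians lay between 5.03 and 5.10. Of 6 cardiomyocyte markers, all were bright, with means of 10.40 to 13.95, whereas 9 lung and thymus markers had means of 3.68 to 5.44, and 3 of them lay below 4.21, the lower quartile of all values. The array's *Actb* and *Gapdh* controls, which read both ends of a transcript as a sign of RNA quality, set a pair of hearts apart. Their mean 3′ to 5′ gap was 0.52, 0.50 and 0.33 in 2lox/2lox hearts 1 to 3, against 0.32 to 0.38 in the wild-type hearts. *Xist* was high only in 2lox/2lox heart 3 (10.88) and wild-type heart 2 (10.59). Because these are whole hearts, fewer cells of a type and less RNA per cell cannot be told apart.

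None of the 25 probe sets differed between the genotypes at an adjusted p under 0.05 (limma, two-sided, Benjamini-Hochberg over all 45101 probe sets). Over the whole array 36 probe sets passed, or 0.0798%, of which 0.0621% were higher and 0.0177% lower in 2lox/2lox hearts. At an unadjusted p under 0.05, 5 of the 25 were higher in 2lox/2lox hearts and 0 were lower, which makes 20% of the members, beside 10.9% of all probe sets (5.97% higher and 4.94% lower). These 5 were single probe sets of *Nkx2-5*, *Gata4* and *Mef2c* and a pair of *Gata6* probe sets. The smallest adjusted p among the members was 0.228. The log2 differences ran from -0.16 to 0.36, with 15 above 0 and 10 below it, and their median was 0.02, beside -0.0036 over all probe sets. The groups did not overlap for 2 of the 25 probe sets (8%), beside 6.11% over all probe sets.

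**Figure D1:**
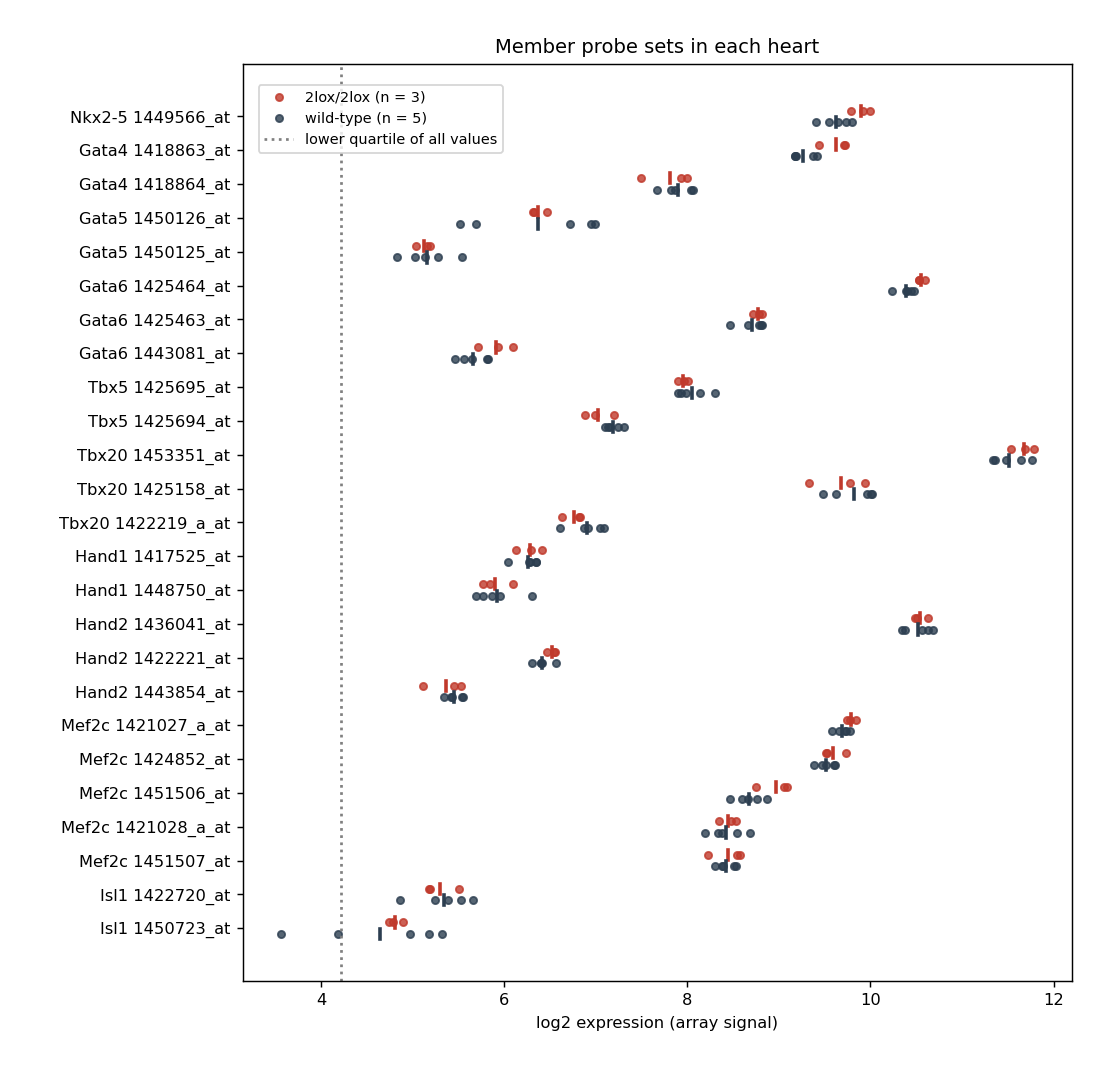
Log2 expression of the 25 probe sets (rows, gene and probe set) in each heart (points), 2lox/2lox above wild-type in each row, with the group mean as a vertical bar and the lower quartile of all values as a dotted line. The groups lie over each other in 23 rows, and the wild-type hearts spread widest in Gata5 1450126_at and Isl1 1450723_at.

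The fit also gave intervals for the size of a change in array signal, each for 1 probe set on its own. The 95% limma intervals of all 25 probe sets lay inside a log2 difference of -1 to 1. These limits stand for 50% of the wild-type signal and a doubling of it. Over the whole array 393 probe sets (0.871%) had an interval reaching either value. The outermost bounds were -0.74, for *Gata5* 1450126_at, and 0.94, for *Isl1* 1450723_at. Without the probe sets of these 2 genes the intervals lay between -0.49 and 0.56. With the 3′ to 5′ gap as a covariate, *Gata5* 1450126_at and *Isl1* 1450723_at had intervals reaching -1 or 1, and the highest bound was 1.47. The *Isl1* bound of 0.94 rests on single hearts. It passed 1 when any one of 2lox/2lox hearts 1, 2 and 3 or wild-type hearts 1, 2 and 4 was left out, with bounds of 1.08, 1.13, 1.14, 1.10, 1.10 and 1.08 in that order. Without wild-type heart 3 the highest bound of any member was 0.60, and without wild-type heart 5 it was 0.86. The members were also noisier than most probe sets, with a median standard error of 0.096, against 0.077 over all probe sets.

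**Figure D2:**
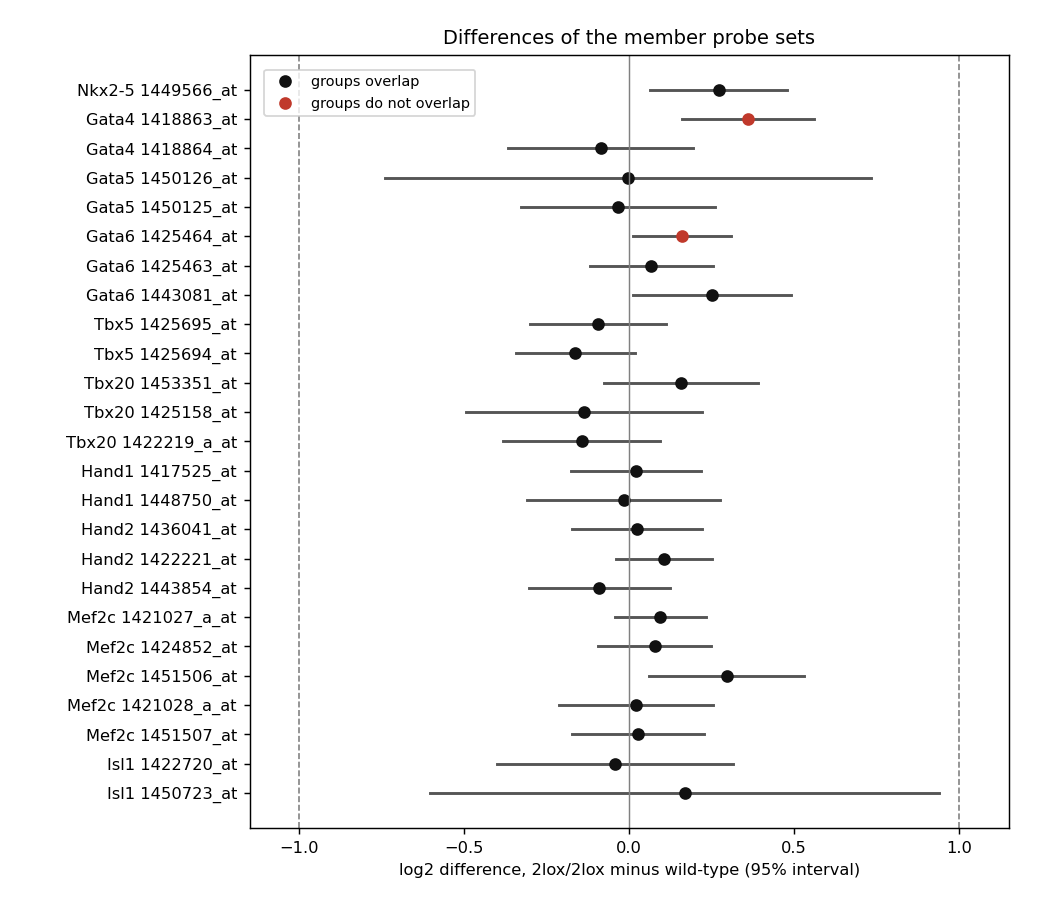
Log2 difference (2lox/2lox minus wild-type) of the 25 probe sets with its 95% limma interval, dashed lines at -1 and 1. Red points mark Gata4 1418863_at and Gata6 1425464_at, whose groups do not overlap, and no interval reaches a dashed line.

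*Nkx2-5*, whose product works with GATA4 and TBX5 on many cardiac promoters, had a single probe set. It read 9.99, 9.92 and 9.78 in 2lox/2lox hearts, against 9.73, 9.41, 9.80, 9.55 and 9.65 in wild-type hearts. Hearts 1 and 2 of the 2lox/2lox group lay above every wild-type heart, and 2lox/2lox heart 3 lay just below wild-type heart 3. The log2 difference was 0.27 (standard error 0.09, interval 0.06 to 0.48, limma adjusted p = 0.336). The study's own qRT-PCR of E18.5 hearts gave no significant change in *Nkx2-5* RNA, and its immunoblots gave no change in the protein.

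Of the GATA factors, *Gata4*, needed for cardiomyocyte growth and for the endocardial cushions, had the smallest p of all members. Its brighter probe set (1418863_at) read 9.71, 9.73 and 9.44 in 2lox/2lox hearts, against 9.42, 9.18, 9.37, 9.17 and 9.19 in wild-type hearts. All 3 2lox/2lox hearts lay above all 5 wild-type hearts, although 2lox/2lox heart 3 exceeded wild-type heart 1 by little. The log2 difference was 0.36 (standard error 0.09, interval 0.16 to 0.56, limma adjusted p = 0.228), and the probe set ranked 458 by p on the array. Without 2lox/2lox heart 3 this probe set passed the threshold (log2 difference 0.45, limma adjusted p = 0.0397), in a comparison where 797 probe sets passed (1.77%). Leaving out any other heart gave no member that passed. The other *Gata4* probe set (1418864_at) did not share the pattern. It read 7.49, 8.001 and 7.93 in 2lox/2lox hearts, against 8.06, 7.87, 7.67, 7.83 and 8.04 in wild-type hearts (log2 difference -0.09, limma adjusted p = 0.871), and here 2lox/2lox heart 1 was the lowest of all.

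*Gata6*, which overlaps with *Gata4* in function and is needed for the outflow tract, had a log2 difference above 0 at all 3 probe sets. The brightest (1425464_at) read 10.53, 10.60 and 10.53 in 2lox/2lox hearts, against 10.48, 10.40, 10.23, 10.44 and 10.39 in wild-type hearts. These groups did not overlap, but the gap between 2lox/2lox heart 3 and wild-type heart 1 was small beside the wild-type range of 0.25. The log2 difference was 0.16 (standard error 0.07, limma adjusted p = 0.420). The other *Gata6* probe sets had differences of 0.25 (1443081_at, limma adjusted p = 0.437) and 0.07 (1425463_at, limma adjusted p = 0.843), with overlapping groups.

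*Gata5*, expressed in the endocardium and needed for normal valves, differed among wild-type hearts more than between genotypes. Its brighter probe set (1450126_at) read 6.47, 6.33 and 6.32 in 2lox/2lox hearts, against 6.72, 6.99, 5.52, 6.95 and 5.69 in wild-type hearts. Wild-type hearts 3 and 5 lay below every 2lox/2lox heart and the other 3 wild-type hearts lay above them. The SD was 0.08 in 2lox/2lox hearts (n = 3) and 0.71 in wild-type hearts (n = 5), where the median wild-type SD was 0.156 over the members. The log2 difference was -0.0032 (interval -0.74 to 0.73, limma adjusted p = 0.998). The dimmer *Gata5* probe set (1450125_at) had a difference of -0.03, and wild-type hearts 3 and 5 were again its lowest hearts.

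The T-box genes gave no shared direction. *Tbx5*, needed for the atrial septum and the conduction system, had differences below 0 at both probe sets. The dimmer (1425694_at) read 6.99, 6.89 and 7.20 in 2lox/2lox hearts, against 7.14, 7.10, 7.24, 7.31 and 7.16 in wild-type hearts. Hearts 1 and 2 of the 2lox/2lox group were the lowest and heart 3 lay within the wild-type range (log2 difference -0.16, interval -0.34 to 0.02, limma adjusted p = 0.504). The difference was -0.03 with the 3′ to 5′ gap as a covariate and -0.25 without 2lox/2lox heart 3. The brighter *Tbx5* probe set (1425695_at) had a difference of -0.10 (limma adjusted p = 0.783). *Tbx20*, needed for chamber growth and valve formation, had a difference of 0.16 at its brightest probe set (1453351_at, limma adjusted p = 0.654), -0.14 at 1425158_at (limma adjusted p = 0.829) and -0.14 at 1422219_a_at (limma adjusted p = 0.695), so its probe sets disagreed in sign.

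The HAND genes differed little. *Hand1*, a factor of the left ventricle, had differences of 0.02 (1417525_at) and -0.02 (1448750_at), with intervals inside -0.31 to 0.28. *Hand2*, needed for the right ventricle, read 10.63, 10.51 and 10.49 at its brightest probe set (1436041_at) in 2lox/2lox hearts, against 10.57, 10.63, 10.34, 10.68 and 10.37 in wild-type hearts. The 2lox/2lox hearts lay inside the wild-type range, and wild-type hearts 3 and 5 were the lowest of all 8 (log2 difference 0.02, interval -0.17 to 0.22). Its other probe sets had differences of 0.11 (1422221_at) and -0.09 (1443854_at).

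*Mef2c*, whose product activates genes of the contractile apparatus, had 5 probe sets, all with a difference above 0. The largest was at 1451506_at, which read 9.06, 9.09 and 8.75 in 2lox/2lox hearts, against 8.76, 8.46, 8.87, 8.67 and 8.60 in wild-type hearts. Again 2lox/2lox hearts 1 and 2 lay above every wild-type heart, while 2lox/2lox heart 3 lay within the wild-type range (log2 difference 0.30, standard error 0.11, limma adjusted p = 0.354). The other 4 had differences of 0.02 to 0.09, among them the brightest, 1421027_a_at (0.09, interval -0.04 to 0.23). The difference of 1451506_at was therefore not seen at the same size elsewhere on the gene.

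*Isl1*, which at this stage marks the sinus node, the outflow tract and cardiac ganglia, was the dimmest member. Its brighter probe set (1422720_at) read 5.19, 5.18 and 5.51 in 2lox/2lox hearts, against 5.39, 5.53, 4.86, 5.66 and 5.25 in wild-type hearts (log2 difference -0.04, limma adjusted p = 0.960). The other (1450723_at) read 4.90, 4.79 and 4.74 in 2lox/2lox hearts, against 4.97, 5.17, 3.56, 5.32 and 4.19 in wild-type hearts (log2 difference 0.17, standard error 0.35, limma adjusted p = 0.918). Wild-type hearts 3 and 5 were the lowest wild-type hearts at both probe sets. The second was the only member probe set whose mean lay under the median of all probe sets (5.07), and it read less than that quartile of 4.21 in wild-type hearts 3 and 5. In the study's qRT-PCR *Isl1* RNA did not differ significantly between the genotypes.

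Among the members higher in 2lox/2lox hearts at an unadjusted p under 0.05, those of *Nkx2-5*, *Gata4* and *Mef2c* (1451506_at) were highest in 2lox/2lox hearts 1 and 2, the hearts with the larger 3′ to 5′ gap. With that gap as a covariate their log2 differences were 0.15, 0.19 and 0.09, against 0.27, 0.36 and 0.30 without it, and every member had a limma adjusted p of 0.9999. Of the *Gata6* probe sets, 1443081_at, also highest in those hearts, had 0.10 with the covariate and 0.25 without it, and 1425464_at had 0.18 and 0.16. Hearts 1 and 2 of the 2lox/2lox group alone had the larger gap, so this covariate cannot tell RNA quality and genotype apart in them. Heart 3 was also the only 2lox/2lox heart with high *Xist*. With a sex score (*Eif2s3y*, *Kdm5d* and *Uty* minus *Xist*) as the covariate, the differences were 0.31 for *Nkx2-5*, 0.39 for *Gata4* and 0.34 for *Mef2c* (1451506_at). The parts of RNA quality and sex in these results were not tested further. The score of 7 ventricular markers, that is, how far they lay on average from their wild-type means, was 0.18, 0.26 and 0.04 in 2lox/2lox hearts 1 to 3, against -0.17 to 0.10 in wild-type hearts. Of the 7, *Lbh*, *Irx4* and *Hey2* had log2 differences of 0.51, 0.31 and 0.30, and *Mpped2* had -0.08. Those of *Myl2*, *Myl3* and *Myh7* were 0.015, 0.024 and 0.049. The score of 6 cardiomyocyte markers was 0.07 to 0.18 in 2lox/2lox hearts, against -0.11 to 0.08 in wild-type hearts. The macrophage list separated the groups, with 8 of 8 markers above 0 and a score of 0.14 to 0.29 in 2lox/2lox hearts, against -0.11 to 0.10 in wild-type hearts. The median log2 difference was 0.21 on this list and -0.0046 over all genes. Of its markers *Cd163*, with a difference of 0.01, averaged 3.64, below the lower quartile of all values. Of 7 epicardial markers 6 lay below 0, with a score of -0.72 to -0.05 in 2lox/2lox hearts, against -0.34 to 0.24 in wild-type hearts. Of 13 autonomic neuron and ganglion markers 10 were measured, and 9 of these lay below 0. Their score was -0.16 to -0.03 in 2lox/2lox hearts, against -0.05 to 0.05 in wild-type hearts. Only *Dbh*, *Gap43* and *Sox10* of this list averaged more than the array-wide median of 5.07, and each had a difference below 0. The other measured markers were dimmer, and whether they read signal over background was not tested. In all these lists 0 genes passed the threshold, and the part of the cell make-up in the members' values was not tested.

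**Figure D3:**
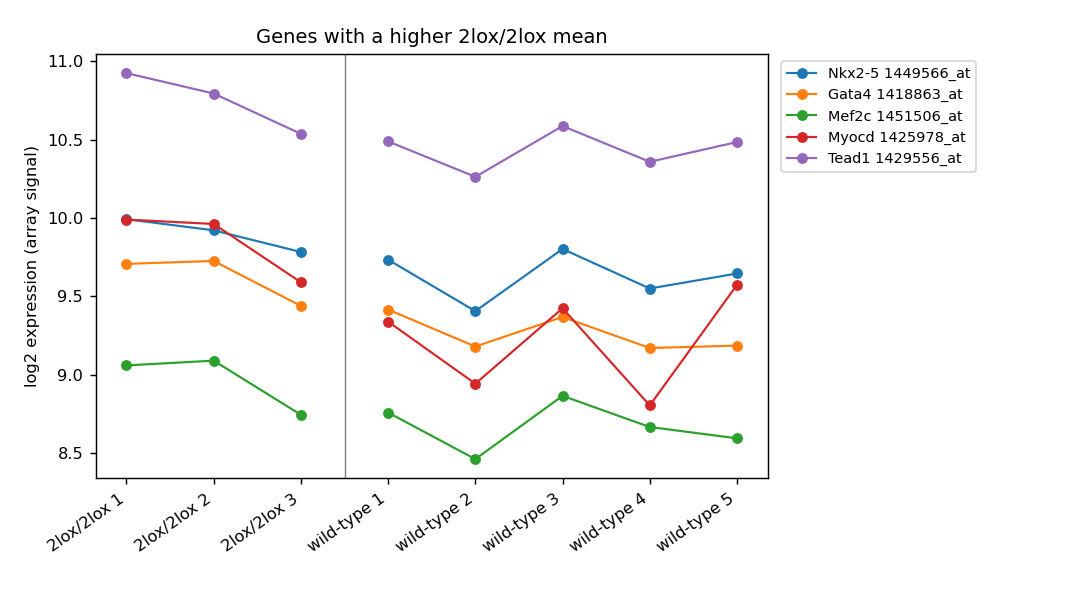
Log2 expression (vertical axis) of 3 members, Myocd and Tead1 in each heart (horizontal axis), 2lox/2lox hearts on the left and wild-type hearts on the right. In the 2lox/2lox group heart 3 is the lowest for all 5 genes, and for Nkx2-5, Mef2c and Tead1 it lies within the wild-type range.

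Of 48 partners and further cardiac regulators, 45 had a probe set of their own, and 0 passed the threshold, beside 0.148% of all genes taken with 1 probe set each. At an unadjusted p under 0.05, 8 were higher (5.82% of all genes) and 2 were lower in 2lox/2lox hearts (4.41% of all genes), and the median log2 difference was 0.06. The smallest p belonged to *Myocd*, which encodes myocardin, a coactivator of SRF in heart and smooth muscle. It read 9.99, 9.96 and 9.59 in 2lox/2lox hearts, against 9.34, 8.94, 9.42, 8.81 and 9.57 in wild-type hearts. The groups did not overlap, and 2lox/2lox heart 3 lay just above wild-type heart 5 (log2 difference 0.63, standard error 0.17, limma adjusted p = 0.262). *Casz1*, a zinc finger gene needed for heart growth, had a difference of 0.50 (limma adjusted p = 0.281), *Hey1*, a Notch target of the atria and endocardium, -0.27 (limma adjusted p = 0.290), and *Tead1*, which encodes the DNA-binding partner of YAP, 0.32 (limma adjusted p = 0.308). With the 3′ to 5′ gap as a covariate the differences were 0.36 for *Myocd*, 0.38 for *Casz1*, -0.14 for *Hey1* and 0.11 for *Tead1*.

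Of 30 target genes of the core factors 28 were measured, and 0 passed the threshold. At an unadjusted p under 0.05, 4 of the 28 were higher and 3 were lower in 2lox/2lox hearts, beside 5.82% and 4.41% of all genes, and the median was 0.05. *Gja5*, which encodes connexin 40 of the atria and the ventricular conduction system and is a target of TBX5 and NKX2-5, split the 2lox/2lox group. It read 5.64, 5.72 and 6.89 in 2lox/2lox hearts, against 6.80, 6.75, 6.73, 6.80 and 6.90 in wild-type hearts. Hearts 1 and 2 of the 2lox/2lox group lay far below every other heart, and heart 3 lay within the wild-type range (log2 difference -0.71, limma adjusted p = 0.320). Without 2lox/2lox heart 3, the one heart of its group within that range, the difference was -1.12 (limma adjusted p = 6.42e-04). In that comparison 797 probe sets passed (1.77%). With the 3′ to 5′ gap as a covariate the *Gja5* difference was -0.05 (limma adjusted p = 0.9999), and with the sex score -0.79 (limma adjusted p = 0.158). The score of 9 atrial markers was -0.20, -0.25 and 0.11 in 2lox/2lox hearts 1 to 3, against -0.36 to 0.34 in wild-type hearts. The parts of RNA quality, sex and chamber content in the *Gja5* values were not tested. *Bmp10*, an atrial growth factor at this stage, had a difference of -0.41 with groups that did not overlap (limma adjusted p = 0.234), or -0.28 with the 3′ to 5′ covariate. *Xirp1*, of the intercalated disc, had 0.43 (limma adjusted p = 0.306), or 0.13 with the covariate. *Ckm*, the muscle creatine kinase, had 1.14 (limma adjusted p = 0.349), or 1.06 with the covariate. Its values overlapped, at 11.75 to 12.03 in 2lox/2lox hearts and 9.64 to 11.92 in wild-type hearts.

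To see which genes varied with each member, the group means were subtracted and each member's brightest probe set was correlated over the 8 hearts with 11973 other genes. With so few hearts nearly every gene has a close match, since the highest r of a typical gene was 0.982, with quartiles of 0.975 and 0.988. Genes read on the same array share its RNA quality and the dissection of that heart, so the values are descriptions. The closest gene to *Gata4* was *Gphn* (r = 0.993), to *Tbx20* *Fosl2* (r = 0.993) and to *Gata5* *Foxp2* (r = 0.991), all above the upper quartile. The other members lay lower. The closest genes were *Nono* for *Hand1* (r = 0.984), *Kctd15* for *Hand2* (r = 0.982), *Fkbp4* for *Nkx2-5* (r = 0.982), *Tanc1* for *Mef2c* (r = 0.978), *Drosha* for *Tbx5* (r = 0.972), *Pls3* for *Isl1* (r = 0.972) and *Bcl9* for *Gata6* (r = 0.957). Without the 2 hearts farthest from the median, the value for *Gata6* was 0.716.

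Both probe sets of *Gata5*, both of *Isl1* and the brightest of *Hand2* had in common that wild-type hearts 3 and 5 were their lowest wild-type hearts. The other *Hand2* probe sets did not show this. *Foxp2*, a forkhead factor gene, read 8.36, 8.29 and 8.26 in 2lox/2lox hearts, against 8.71, 8.97, 7.73, 8.76 and 7.78 in wild-type hearts. Some genes of valve and cartilage-like mesenchyme, chosen after their values were seen, were low in the same 2 hearts. *Sox9*, a factor of valve mesenchyme and cartilage, read 7.13, 6.93 and 6.93 in 2lox/2lox hearts, against 7.06, 7.41, 6.04, 7.10 and 6.19 in wild-type hearts. *Col9a1*, a cartilage collagen gene, read 9.08, 9.18 and 8.84 in 2lox/2lox hearts, against 9.31, 9.87, 7.38, 9.50 and 7.77 in wild-type hearts. The score of all 8 fibroblast and valve mesenchyme markers was 0.03 to 0.13 in 2lox/2lox hearts, against -0.35 and -0.07 in wild-type hearts 3 and 5 and -0.15 to 0.43 in the other wild-type hearts. On this list *Pdgfra* and *Lum*, like *Sox9*, had wild-type hearts 3 and 5 as their lowest wild-type hearts. *Dcn* (11.28) and *Col1a2* (12.83) were highest among the wild-type hearts in heart 5, and *Col1a1*, *Col3a1* and *Postn* did not share the pattern. So the whole list did not set both hearts apart, and the part of mesenchyme in the values of *Gata5*, *Isl1* and *Hand2* was not tested.

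**Figure D4:**
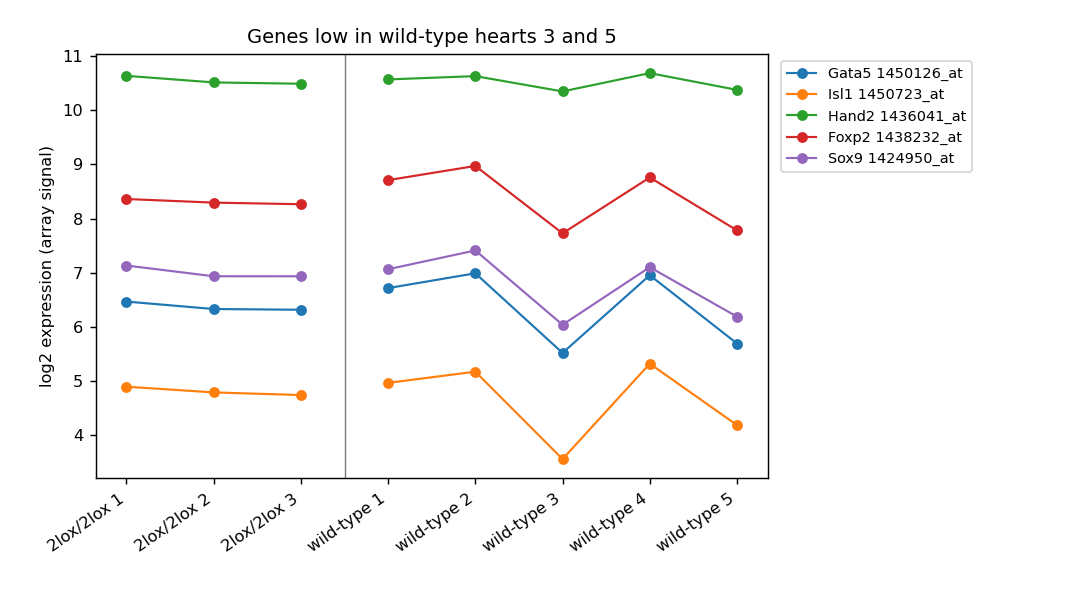
Log2 expression (vertical axis) of Gata5 1450126_at, Isl1 1450723_at (the dimmer of its probe sets), Hand2 1436041_at, Foxp2 and Sox9 in each heart (horizontal axis), 2lox/2lox hearts on the left and wild-type hearts on the right. The 5 probe sets plotted are lowest in wild-type hearts 3 and 5, while the 2lox/2lox hearts lie close together.

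The promoters of these 3 genes are shown because probe sets of each, for *Hand2* the brightest alone, were low in the same wild-type hearts. Each is the 250 bases before the gene's start in RefSeq (GRCm38.p6), 5′ to 3′ on the gene's strand, and capitals mark matches on either strand to 2 motifs. One is the GATA motif, spelled AGATAA or TGATAA or AGATAG or TGATAG, and the other is the E-box, spelled CANNTG. The matches do not overlap.
Gata5, chr2:180334680-180334929, minus strand: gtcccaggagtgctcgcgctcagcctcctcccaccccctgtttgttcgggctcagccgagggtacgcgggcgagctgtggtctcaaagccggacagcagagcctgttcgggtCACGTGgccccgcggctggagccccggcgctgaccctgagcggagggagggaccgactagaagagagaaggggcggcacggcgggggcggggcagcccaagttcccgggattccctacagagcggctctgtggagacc
Hand2, chr8:57320733-57320982, plus strand: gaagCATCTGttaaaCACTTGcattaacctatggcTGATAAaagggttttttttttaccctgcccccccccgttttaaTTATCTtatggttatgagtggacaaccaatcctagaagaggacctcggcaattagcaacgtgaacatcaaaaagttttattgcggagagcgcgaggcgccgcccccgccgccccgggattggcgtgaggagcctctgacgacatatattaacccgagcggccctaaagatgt
Isl1, chr13:116309689-116309938, minus strand: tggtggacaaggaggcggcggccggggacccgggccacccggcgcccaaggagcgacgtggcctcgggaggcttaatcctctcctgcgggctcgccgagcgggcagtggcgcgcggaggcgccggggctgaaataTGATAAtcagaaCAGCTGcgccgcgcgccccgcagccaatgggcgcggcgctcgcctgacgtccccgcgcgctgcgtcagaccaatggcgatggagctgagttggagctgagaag
The *Hand2* window held 2 GATA motifs and 2 E-boxes, the *Isl1* window 1 GATA motif and 1 E-box, and the *Gata5* window 1 E-box and 0 GATA motifs. A GATA motif was present in 26.5% and an E-box in 66.2% of all 32851 promoter windows of this length, so the matches are descriptions of these sequences. Of the 10 members, 6 had a promoter in the table.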

How the data were processed

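Total RNA was prepared from single whole hearts, and every heart had its own array. The deposited values are log2 expression levels, used as the authors gave them. The submitters' notes name limma without a version. How the probes were summarized and the arrays normalized was not given in the sources used here, and this could change low values most. The number of arrays sets the precision.

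Hearts were grouped by their labels and all 8 were fitted together, with limma 3.58.1 under R 4.3.3 (lmFit, then eBayes with neither trend nor robust moderation). Tests were two-sided, with Benjamini-Hochberg adjustment over 45101 probe sets and a threshold of 0.05. Symbols of the platform annotation were updated by gene identifier to a RefSeq table (GRCm38.p6), which matched 99.4% of the 34958 probe sets with 1 gene. Lists used the brightest probe set of each gene. The members and lists were chosen with earlier results of these data known. The text names every member probe set, *Kdm1a*, the 4 genes with the smallest p on the partner and on the target list, and the gene most alike to each member. Other genes were chosen after their values were seen.

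Alternatives were quantile normalization, median centring, array weights, a replicate block, covariates (a sex score, *Eif2s3y*, *Kdm5d* and *Uty* minus *Xist*, or the 3′ to 5′ gap), an intensity trend, robust moderation, filters on dim probe sets (reading 5 or more in 3 or more hearts, or having an above-median mean), a fold over 1.4, and leaving out each heart in turn. The fit was tested on simulated data.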

Additional observations from a re-analysis of the deposited data

Results flagged for a closer look

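In 60 quantities checked over the 5 wild-type hearts, the lowest heart stood far from the others in 2. Chance alone flags about 1 in 20 such groups. *Hand1* 1417525_at read 6.04 in wild-type heart 5, and the nearest wild-type heart read 6.27. *Bcl9* 1451574_at, the gene most alike to *Gata6*, read 7.46 in wild-type heart 3, and the nearest wild-type heart read 7.73.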

How the results depend on the processing

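No member passed the threshold under any alternative that kept all 8 hearts, and with hearts left out in turn the count was 0 to 1 for the members, 0 to 1 for the target genes and 0 for the partners. The median member difference was 0.093 with the 3′ to 5′ gap as a covariate and 0.0075 to 0.071 with hearts left out. The number of intervals reaching -1 or 1 was 2 with that covariate (*Gata5* 1450126_at and *Isl1* 1450723_at), 1 with robust moderation and 0 to 1 with hearts left out. Hearts with the same replicate number did not vary alike (correlations of deviations 0.01, -0.08 and -0.05), which does not test whether hearts shared a litter. With the replicate block 0 of 45101 probe sets passed, *Kdm1a* included (limma adjusted p = 0.110 and 0.103). With the 3′ to 5′ covariate 9 probe sets passed, and the dimmer *Kdm1a* probe set had a limma adjusted p of 0.0669.

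The sign turned for some of the smaller differences. With quantile normalization *Gata5* 1450126_at had 0.0091. With the replicate block *Hand1* 1417525_at had -0.023, *Mef2c* 1451507_at -0.024 and *Isl1* 1422720_at 0.035. With the 3′ to 5′ covariate *Gata4* 1418864_at had 0.080, *Gata5* 1450126_at 0.16, *Tbx20* 1425158_at 0.14, *Hand1* 1417525_at -0.10 and 1448750_at 0.064, *Hand2* 1443854_at 0.017 and *Isl1* 1422720_at 0.24. With hearts left out the ranges that crossed 0 were -0.18 to 0.071 (*Gata4* 1418864_at), -0.22 to 0.15 and -0.12 to 0.059 (*Gata5* 1450126_at and 1450125_at), -0.27 to 0.041 (*Tbx20* 1425158_at), -0.046 to 0.096 and -0.11 to 0.081 (*Hand1* 1417525_at and 1448750_at), -0.020 to 0.065 and -0.17 to 0.036 (*Hand2* 1436041_at and 1443854_at), -0.038 to 0.086 and -0.035 to 0.14 (*Mef2c* 1421028_a_at and 1451507_at) and -0.16 to 0.038 and -0.10 to 0.34 (*Isl1* 1422720_at and 1450723_at). The cause was not tested. Whether the dim probe sets of *Isl1* read signal over background was not tested either.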
